A study of Mus musculus with 8 samples.

Results

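Mitosis draws on a wave of gene expression that peaks in the G2 and M phases of the cell cycle. The 45 mouse genes described here encode the proteins of that wave: kinases and cyclins of mitotic entry, the spindle checkpoint, the kinetochore, motor proteins of the kinesin family, spindle and cytokinesis factors, and the ubiquitin machinery that ends mitosis. They were taken from a list of gene symbols of these functions, chosen with earlier results of these data known. All 45 were found among the 24054 rows of the table, in libraries of the mouse dendritic cell line DC2.4.

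Cyclin B1 with the kinase Cdk1 starts mitosis, with Plk1 and Aurora A as further entry kinases. The spindle checkpoint then holds the ubiquitin ligase APC/C, whose activator is Cdc20, until every chromosome is attached to the spindle. Many of these genes are known to be repressed in G1 and induced in G2 through promoter elements called the cell cycle homology region (CHR) and the CCAAT box, the latter bound by NF-Y. The group is widely used as a marker of proliferating cells.

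All cells were DC2.4, an immortalised line used as a model of dendritic cells, with C57BL/6 as its labelled strain. They were kept in medium with 10% serum, held for 4 h in 0.1% serum, and then either left untreated or given 250 PNU/ml of house dust mite extract (HDM), timothy grass extract (Grass) or cat hair extract (Cat) for 4 h. Each of the 4 groups holds 2 libraries, called independent in the series' design text, and no vehicle for the untreated cells is named. No animal or primary cell was used, and p-values here reflect how far the libraries of a group differ, which may be technical. Depth was 31938460 to 43316229 reads per library, and no member had fewer than 448 reads in any library. Of 24 dendritic and myeloid markers in the table, 18 were at or above 0.5 in every library, among them Itgam, Csf1r, Cd74 and Spi1, whereas H2-Ab1 was at 0 in all 8 libraries and H2-Aa, Ciita, Flt3 and Clec9a stayed below 0.5. Among 16 markers of other cell types, 15 stayed below 0.5 throughout, and Cd8a was at 0.461 to 0.98.

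Values are the authors' depth-scaled signal, close to CPM. Changes are log2 fold changes of the value plus 0.1 with the standard error (SE), tested with limma over 11455 rows, and a gene was called at a Benjamini-Hochberg adjusted p under 0.05. All 45 members passed the filter on low values, with values of 13.1 to 787.

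The promoter elements named above are shown first, and their part in the changes was not tested. RefSeq windows of 300 bases on GRCm38.p6, running from 250 bases before to 50 after the annotated start, were matched for 38 of the 45 members. Plk1, Cdc20, Hmmr and Kif23 stand for members that fell with every extract, and Ttk, Birc5 and Mad2l1 for members that were called with none. Capitals mark the CCAAT box, the canonical CHR, which is spelled TTTGAA, and a variant of the CHR that is spelled TTCGAA. Both strands were searched, so an element on the other strand appears as its reverse complement.
Plk1 (chr7:122159185-122159484, + strand): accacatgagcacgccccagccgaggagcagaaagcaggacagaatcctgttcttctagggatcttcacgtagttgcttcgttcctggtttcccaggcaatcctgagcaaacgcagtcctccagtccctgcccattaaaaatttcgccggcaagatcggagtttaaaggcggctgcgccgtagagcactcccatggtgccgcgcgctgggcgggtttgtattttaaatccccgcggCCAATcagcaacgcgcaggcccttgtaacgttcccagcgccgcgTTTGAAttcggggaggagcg
Cdc20 (chr4:118437294-118437593, - strand): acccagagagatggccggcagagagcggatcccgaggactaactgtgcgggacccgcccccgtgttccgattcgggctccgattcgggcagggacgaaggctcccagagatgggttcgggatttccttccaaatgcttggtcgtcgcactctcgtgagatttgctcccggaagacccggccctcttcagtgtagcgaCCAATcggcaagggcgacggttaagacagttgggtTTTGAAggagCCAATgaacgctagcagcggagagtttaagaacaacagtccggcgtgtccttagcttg
Hmmr (chr11:40733388-40733687, - strand): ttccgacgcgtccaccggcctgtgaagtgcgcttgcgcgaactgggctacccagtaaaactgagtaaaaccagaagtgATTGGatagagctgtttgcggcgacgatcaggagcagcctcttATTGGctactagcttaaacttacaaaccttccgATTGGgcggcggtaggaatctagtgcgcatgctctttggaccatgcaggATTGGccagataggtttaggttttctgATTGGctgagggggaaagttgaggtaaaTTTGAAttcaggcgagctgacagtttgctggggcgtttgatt
Kif23 (chr9:61946750-61947049, - strand): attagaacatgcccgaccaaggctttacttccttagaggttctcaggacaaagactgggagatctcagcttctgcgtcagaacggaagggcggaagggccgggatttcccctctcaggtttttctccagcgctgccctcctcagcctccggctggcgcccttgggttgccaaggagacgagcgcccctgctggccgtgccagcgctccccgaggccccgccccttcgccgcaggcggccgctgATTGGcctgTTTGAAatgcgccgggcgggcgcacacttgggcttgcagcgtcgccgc
Ttk (chr9:83834439-83834738, + strand): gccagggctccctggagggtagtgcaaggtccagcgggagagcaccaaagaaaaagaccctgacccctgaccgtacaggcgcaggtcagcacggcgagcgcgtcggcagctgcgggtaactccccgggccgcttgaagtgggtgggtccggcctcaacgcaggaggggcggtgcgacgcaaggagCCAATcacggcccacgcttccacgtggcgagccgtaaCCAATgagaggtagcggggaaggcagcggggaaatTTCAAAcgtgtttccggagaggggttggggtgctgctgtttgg
Birc5 (chr11:117848987-117849286, + strand): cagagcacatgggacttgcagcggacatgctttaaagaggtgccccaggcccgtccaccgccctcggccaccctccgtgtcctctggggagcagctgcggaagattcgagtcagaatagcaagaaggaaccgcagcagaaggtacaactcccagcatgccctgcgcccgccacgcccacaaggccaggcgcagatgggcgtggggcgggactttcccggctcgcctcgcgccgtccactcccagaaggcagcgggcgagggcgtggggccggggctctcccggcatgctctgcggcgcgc
Mad2l1 (chr6:66534971-66535270, + strand): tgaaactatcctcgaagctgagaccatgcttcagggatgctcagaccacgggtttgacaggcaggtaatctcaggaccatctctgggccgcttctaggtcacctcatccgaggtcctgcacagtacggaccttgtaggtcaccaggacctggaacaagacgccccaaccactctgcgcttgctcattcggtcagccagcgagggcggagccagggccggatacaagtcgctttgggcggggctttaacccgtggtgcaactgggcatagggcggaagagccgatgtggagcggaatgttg

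Plk1 had 1 CCAAT and 1 TTTGAA, Cdc20 had 2 and 1, and Hmmr had 5 and 1. Ttk, called with no extract, also had 2 and 1. Birc5 and Mad2l1 held neither element in this window. Neither was found in Pttg1, called with no extract, nor in Nuf2, Kif18a or Nusap1, which fell with every extract. Sgol1, called with none, held a CCAAT box and the variant form of the CHR. TTTGAA or TTCGAA was found in 29 of the 38 member promoters (76.3%), against 16.5% of the 8693 tested genes with a promoter and 21.7% of all 27025 genes in the promoter table. CCAAT was found in 28 (73.7%), against 43.7% of tested genes, and 18 members (47.4%) held at least 2 copies, against 17.3%. Both elements stood together in 25 members (65.8%) and in 8.33% of tested genes. An E2F motif, searched in the form TTTGGCG, in a second known form spelled as TTTCCCG and in the remaining form, TTTCGCG, was in 5 members (13.2%, against 11.8%). The forkhead motif with the letters TGTTTAC was in 2 (5.26%, against 2.91%). Within the 38, the median log2 fold change with Grass was -0.36 in the 28 with CCAAT and -0.22 in the others. It was -0.30 against -0.21 with HDM and -0.27 against -0.21 with Cat. For TTTGAA the medians with and without it were -0.35 and -0.17 with Grass, -0.30 and -0.21 with HDM, and -0.24 and -0.20 with Cat. With either form of the CHR they were -0.31 against -0.35 with Grass, -0.27 against -0.34 with HDM and -0.23 against -0.25 with Cat. The order thus turned with the form counted. These matches describe letters in a window and were not tested.

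Mitotic genes were lower with all 3 extracts. In HDM libraries 39 of the 45 members were called lower, in Grass libraries 39 and in Cat libraries 37, and limma called 0 higher in each comparison, adjusted or at an unadjusted p under 0.05. Count tests on the recovered reads, by edgeR and by DESeq2, likewise found 0 higher. Over all rows tested, the shares that fell were 21.9% (HDM), 25.4% (Grass) and 13.6% (Cat), and 9.22%, 10.4% and 4.34% rose. The same 37 genes fell with every extract, which 10.5% of all rows did. The falls were modest. The median log2 fold changes of the members were -0.27 (HDM), -0.31 (Grass) and -0.23 (Cat), a fall of 17.3%, 19.5% and 14.9%, against -0.03, -0.04 and -0.03 over all rows. Single members ranged from -0.61 to 0.04 with HDM, from -0.67 to 0.05 with Grass and from -0.44 to 0.06 with Cat, with SEs of 0.03 to 0.07.

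In 39 of 45 members all 6 extract libraries lay below both untreated libraries, against 25.2% of all rows. The exceptions were Sgol1, Aurkb, Birc5, Incenp, Ttk and Mad2l1. Summed over the 45 members, the signal was 7038 and 6909 in the untreated libraries, 5751 and 5867 with HDM, 5744 and 5597 with Grass, and 6039 and 5883 with Cat. Replicates were close, with a median difference between the 2 libraries of a group of 0.035 to 0.0398 on the log2 scale. In bulk RNA, fewer cells in mitosis and less RNA per mitotic cell cannot be told apart. The 3 comparisons share the untreated libraries, so their values are given side by side and their likeness is not independent. The total of the deposited values was also higher in untreated libraries (1032128 and 1047501) than in extract libraries (975215 to 1001836), and the summed dendritic and myeloid markers were at 3000 to 3010 against 2770 to 2870. Their part in the result was not tested. With the libraries scaled to a common upper quartile, the scaling that took most calls away, 34, 34 and 33 members were lower. Scaling moved the split over all rows more: the share of calls that were higher was 29.6% (HDM), 29.1% (Grass) and 24.1% (Cat), but 65.2%, 64.8% and 55.7% with upper-quartile factors and 47%, 46.6% and 41.1% with TMM.

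**Figure D1:**
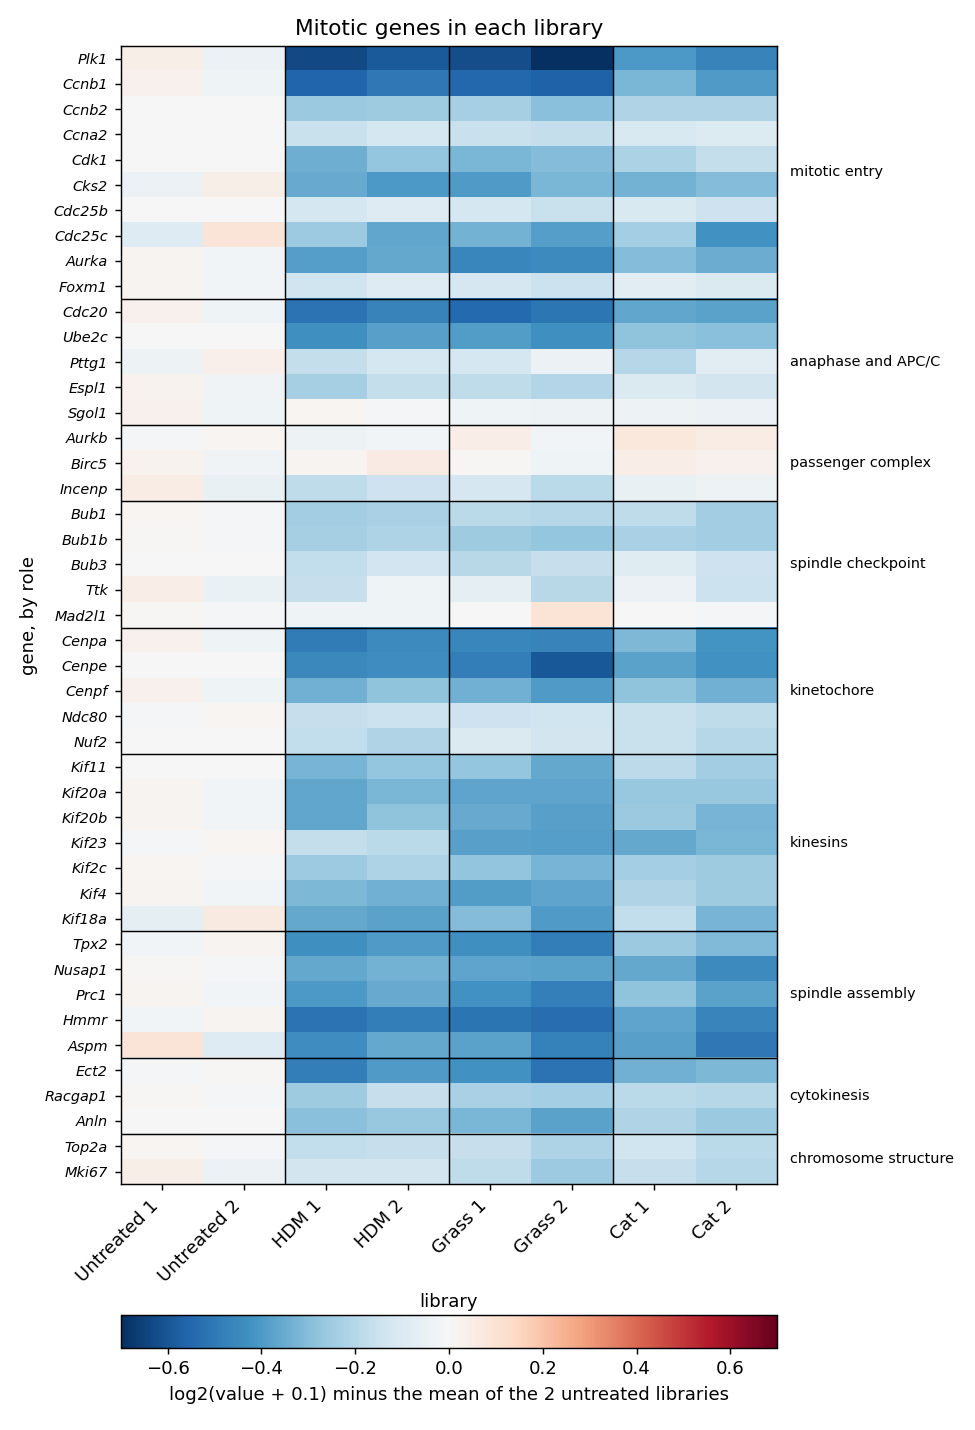
Heat map of 45 mitotic genes (rows, by role) in 8 libraries (columns), coloured by log2(value + 0.1) minus the mean of the 2 untreated libraries. Blue, lower than untreated, fills most rows of all 6 extract libraries, while Sgol1, Aurkb, Birc5 and Mad2l1 stay pale.

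The entry kinases, cyclins and their activators formed the largest group: all 10 fell with HDM and Grass and 9 with Cat, with medians of -0.31, -0.33 and -0.26. Plk1, the Polo-like kinase of mitotic entry and spindle poles, had the lowest log2 fold change of the 45 with HDM (-0.61) and Grass (-0.67), and was at -0.44 with Cat (SE 0.04 each). It was at 135 and 128 in the untreated libraries, at 84.8 and 87.4 with HDM, at 85.3 and 79.8 with Grass and at 99.5 and 94.9 with Cat. Every extract library was thus well below both untreated ones, and its level changed by -34.5%, -37.2% and -26.1% (adjusted p = 6.7e-12, 1.3e-12 and 4.2e-08). Plk1 was the only member in the authors' deposited tables of changed genes, which hold no fold size below 1.501. In the authors' deposited table for Grass its signed fold is -1.54, a smaller fall than the -37.2% found here. It is absent from their tables for HDM and Cat.

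Ccnb1, which encodes cyclin B1, was at 234 and 225 untreated, 156 and 162 with HDM, 157 and 155 with Grass, and 184 and 174 with Cat. Its groups did not overlap with untreated, and the changes were -0.52, -0.55 and -0.36 (SE 0.03 each). The other cyclins moved less: Ccnb2 (cyclin B2) changed by -0.25, -0.26 and -0.21, and Ccna2 (cyclin A2, which acts from S phase into G2) by -0.14, -0.16 and -0.10. The kinase partner of the cyclins, Cdk1, went from 95.2 and 94.9 to 74.9 and 78.7 with HDM, 76 and 77.1 with Grass, and 81.6 and 84.6 with Cat. All 6 extract libraries were below untreated, with changes of -0.31, -0.31 and -0.19 (SE 0.04). The Cat call of Ccna2 ended with TMM, DESeq2 or upper-quartile scaling and without either Cat library, and its HDM call with upper-quartile scaling.

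Aurka, the Aurora A kinase of the centrosome, was at 160 and 156 untreated, 121 and 123 with HDM, 115 and 116 with Grass, and 128 and 124 with Cat. All 6 extract libraries lay lower, with changes of -0.37, -0.45 and -0.33 (SE 0.03). Cks2, a small subunit that binds Cdk1, fell by 0.38, 0.36 and 0.32 on the log2 scale. The Cdk1-activating phosphatases differed in size: Cdc25c changed by -0.31, -0.35 and -0.33 (SE 0.07) and Cdc25b by -0.11, -0.14 and -0.13 (SE 0.03). Foxm1, the forkhead transcription factor of G2 genes, was at 110 and 107 untreated, 98.3 and 102 with HDM, 100 and 97.9 with Grass, and 103 and 101 with Cat. Its libraries did not overlap with untreated, but the change was small (-0.12, -0.13 and -0.09), was not called with Cat (limma adjusted p = 0.059), and its HDM call ended with TMM, DESeq2 or upper-quartile scaling and without HDM 1. Its Grass call ended with upper-quartile scaling and with DESeq2. The HDM call of Cdc25b ended in the same settings as that of Foxm1, its Grass call ended with upper-quartile scaling and DESeq2, and its Cat call with these and without Cat 2. Cdc25c lost its HDM call without untreated 2 or HDM 2 and its Cat call without untreated 2 or Cat 2.

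Among the 5 genes of anaphase and the APC/C, 3 fell with each extract. Cdc20, the APC/C activator, was at 155 and 149 untreated, 106 and 110 with HDM, 104 and 107 with Grass, and 118 and 117 with Cat, changes of -0.49, -0.53 and -0.37 (SE 0.03). Ube2c, the ubiquitin-conjugating enzyme of the APC/C, was at 244 and 243 untreated, 181 and 187 with HDM, 186 and 181 with Grass, and 200 and 199 with Cat. Both genes were below untreated in every extract library. Espl1, which encodes separase, the protease that opens cohesin, changed by -0.21, -0.19 and -0.11, the last lost with 3 scalings and without Cat 1, Cat 2 or untreated 1. Its inhibitor securin, encoded by Pttg1, was not called (-0.15, -0.09 and -0.14, SE 0.07), although its extract libraries, at 13.1 to 14.6, lay below the untreated ones at 14.7 and 15.4. Sgol1, the shugoshin that protects centromeric cohesin, was at 59.5 and 57 untreated, 58.9 and 57.7 with HDM, 57 and 56.9 with Grass, and 56.8 and 56.7 with Cat. Its groups overlapped with HDM, and the changes were 0.00, -0.03 and -0.04 (SE 0.04).

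Of the 3 genes of the chromosomal passenger complex, 1 fell with HDM and Grass and 0 with Cat. Aurkb, the Aurora B kinase that corrects wrong attachments, changed by -0.03, 0.01 and 0.06 (SE 0.03), a value whose sign with HDM turned positive under TMM, DESeq2 and upper-quartile scaling. Birc5, which encodes survivin, was at 81.9 and 79 untreated, 81.5 and 83.6 with HDM, 80.9 and 78.7 with Grass, and 83.1 and 82 with Cat. These groups overlapped, at 0.04, -0.01 and 0.04 (SE 0.04), and the sign with Grass also turned with those scalings. Under upper-quartile scaling Birc5 was called higher with HDM (0.11), Aurkb with Grass (0.09) and Cat (0.11), and Mad2l1 with Grass (0.13). Incenp, the scaffold of the complex, was at 238 and 222 untreated, 203 and 208 with HDM, 211.9 and 202 with Grass, and 222 and 224 with Cat. It fell with HDM (-0.16, limma adjusted p = 0.00048) and Grass (-0.15, limma adjusted p = 0.00072) but was not called with Cat (-0.04, SE 0.03, 0.01 without untreated 1), and its Grass call ended with upper-quartile scaling.

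In the spindle checkpoint, 3 of 5 genes fell with each extract. Bub1, the checkpoint kinase at the kinetochore, was at 229 and 225 untreated, 192 and 194 with HDM, 199 and 198 with Grass, and 201 and 192 with Cat. Bub1b, which encodes BubR1 of the complex that inhibits Cdc20, was at 292 and 289 untreated, 247 and 250 with HDM, 244 and 241 with Grass, and 248 and 245 with Cat. Each had all extract libraries below untreated, at -0.23, -0.19 and -0.21 for Bub1 and -0.23, -0.26 and -0.24 for Bub1b (SE 0.03). Bub3, their binding partner, changed by -0.16, -0.18 and -0.11, and its Cat call ended under 3 scalings and without Cat 2. The kinase Ttk (Mps1), which starts the checkpoint signal, was at -0.10, -0.13 and -0.10 (SE 0.05) and was called with none of the extracts. Mad2l1, which encodes Mad2, the protein that captures Cdc20, was at 80 and 79 untreated, 77.8 and 77.8 with HDM, 79.3 and 85.1 with Grass, and 79.8 and 79 with Cat. Its values overlapped, and the changes were -0.03, 0.05 and 0.00 (SE 0.04), with a positive sign for HDM under TMM, DESeq2 and upper-quartile scaling.

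**Figure D2:**
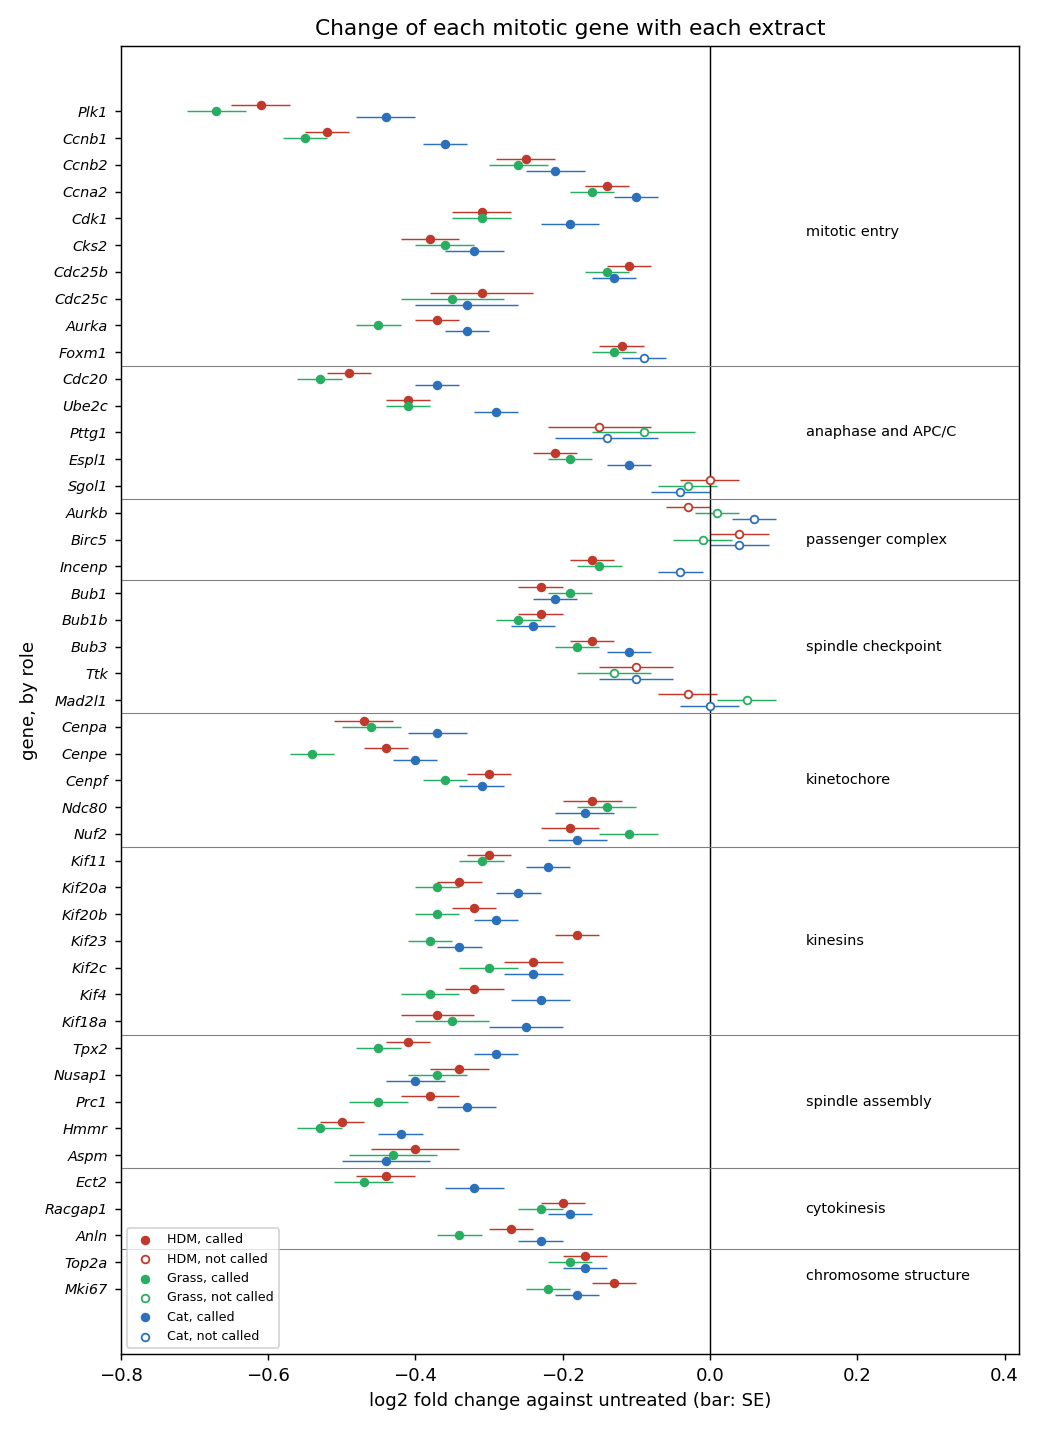
Log2 fold change against untreated of each of 45 genes (rows, by role) with HDM, Grass and Cat, with bars for the SE and filled points for calls at an adjusted p under 0.05. Plk1 is farthest to the left with each of HDM (-0.61) and Grass (-0.67), and Sgol1, Aurkb, Birc5 and Mad2l1 lie at 0 or near it.

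All 5 centromere and kinetochore genes fell with every extract, with medians of -0.30, -0.36 and -0.31. Cenpe, a kinesin that carries chromosomes to the spindle equator, was at 296 and 298 untreated, 217 and 220 with HDM, 211.6 and 197 with Grass, and 229 and 221 with Cat. Cenpa, the histone H3 variant that marks the centromere, was at 95.3 and 91.1 untreated, 66.4 and 68.5 with HDM, 67.9 and 67.3 with Grass, and 75 and 69.6 with Cat. In both genes every extract library was below untreated, with changes of -24.3% to -31.1% for Cenpe and -22.5% to -27.6% for Cenpa. The outer kinetochore protein Cenpf changed by -0.30, -0.36 and -0.31. Ndc80, which encodes the microtubule-binding protein of the outer kinetochore, was at 61.3 and 62.4 untreated, 55.2 and 55.7 with HDM, 56 and 56.1 with Grass, and 55.5 and 54.7 with Cat. That is a smaller change (-0.16, -0.14 and -0.17), and Nuf2, its partner in the same complex, changed by -0.19, -0.11 and -0.18. The HDM and Grass calls of Ndc80 ended with upper-quartile scaling and with DESeq2, its Cat call with DESeq2, and the Cat call of Nuf2 with DESeq2 and without Cat 2. The Grass call of Nuf2 (limma adjusted p = 0.032) ended under 11 of 18 alternatives, among them leaving out either untreated or either Grass library.

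All 7 kinesins fell with every extract, with medians of -0.32, -0.37 and -0.25. Kif20a, a motor of the central spindle, was at 185 and 180 untreated, 142 and 146 with HDM, 141 and 141 with Grass, and 152 and 152 with Cat. Kif4, which condenses chromosomes and shortens the midzone, was at 67 and 65.2 untreated, 53.2 and 52.4 with HDM, 50.4 and 51.2 with Grass, and 57.1 and 55.7 with Cat. Kif18a, which damps chromosome movement, was at 51.3 and 55.9 untreated, 41.7 and 41.3 with HDM, 43.3 and 40.7 with Grass, and 47.5 and 42.7 with Cat. In these 3 genes no extract library reached the lower untreated value, but the Cat call of Kif18a ended without Cat 2. Kif11 (Eg5, which pushes the spindle poles apart) changed by -0.30, -0.31 and -0.22, Kif20b by -0.32, -0.37 and -0.29, and Kif2c (MCAK, which takes apart microtubule ends) by -0.24, -0.30 and -0.24.

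Kif23, the motor of the centralspindlin complex of cytokinesis, fell less with HDM than with Grass or Cat. It was at 109 and 111 untreated, 97.9 and 96.5 with HDM, 84.4 and 84.2 with Grass, and 85.9 and 88.1 with Cat. Both HDM libraries stood below the untreated libraries and above all 4 libraries of the other extracts, without overlap. Mki67 had the same order, at 702 and 702 with HDM against 643 to 684 with Grass and Cat, but was not called between extracts. Smaller differences in this order were also seen in other members, among them Bub1b and Cenpf. The share of all rows with this order was not counted. The changes of Kif23 were -0.18 with HDM, -0.38 with Grass and -0.34 with Cat (SE 0.03). Kif23 was higher with HDM than with Grass by 0.20 (limma adjusted p = 0.00035) and than with Cat by 0.16 (limma adjusted p = 0.0022). In each comparison it was the only 1 of the 45 members called higher with HDM (2.22%). Over all rows, 1.69% were higher than with Grass and 2.94% than with Cat, so this number is near the background. As given below, the call against Cat rested on few libraries. Racgap1, the partner of Kif23 in centralspindlin, did not share the order of Kif23 (-0.20, -0.23 and -0.19).

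**Figure D3:**
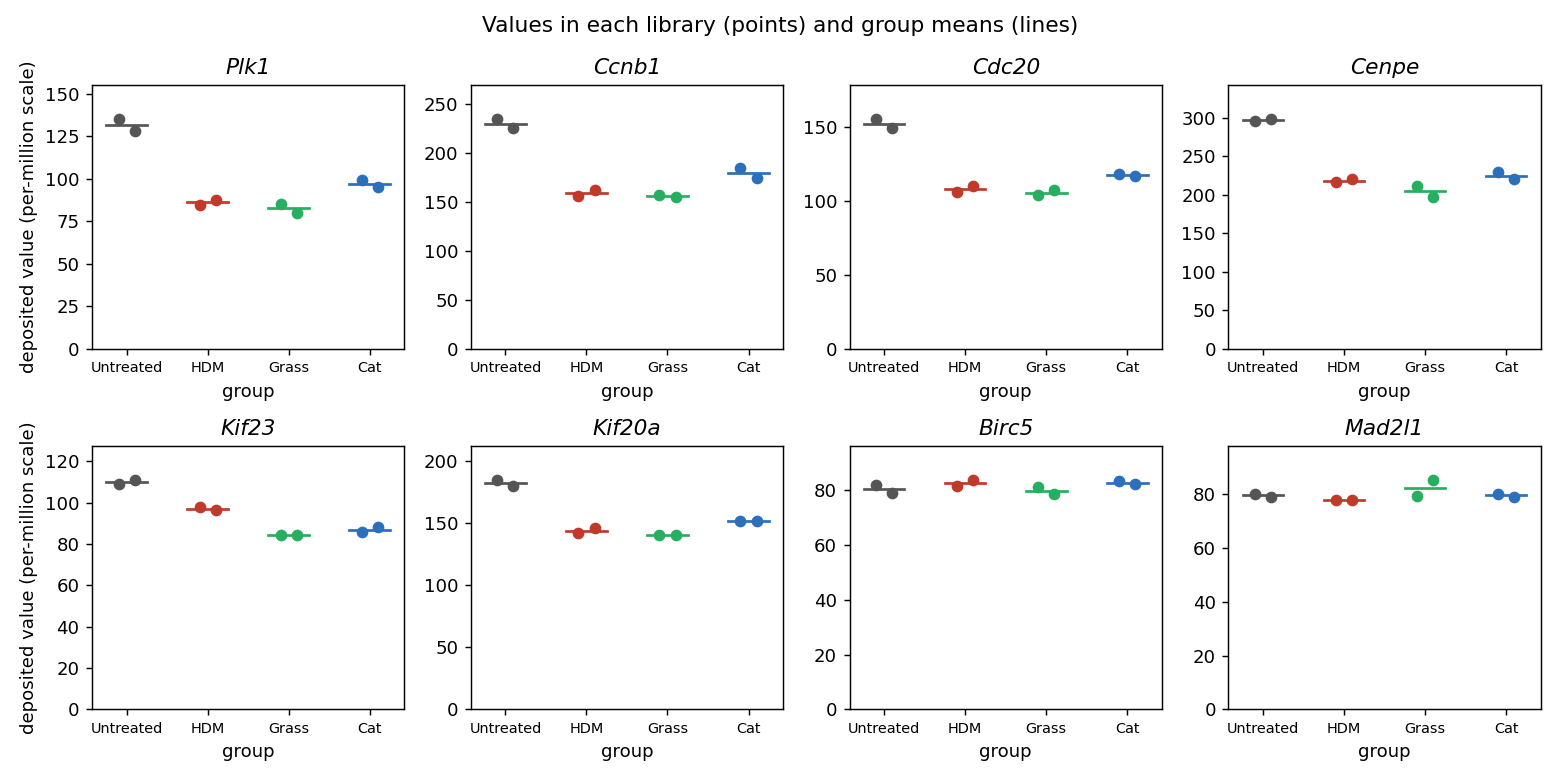
Deposited value (y axis, from 0) of 8 genes in the 2 libraries of each group (points) with the group mean (line). In Kif23 the HDM points at 97.9 and 96.5 lie between untreated and the other extracts, and in Birc5 and Mad2l1 the 4 groups lie together.

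Spindle assembly genes fell with every extract in 5 of 5, with the lowest medians of the roles: -0.40 with HDM, -0.45 with Grass and -0.40 with Cat. Hmmr, a spindle pole protein, was at 136 and 140 untreated, 96.4 and 98.8 with HDM, 96.7 and 95.3 with Grass, and 107 and 100 with Cat. Tpx2, which activates Aurora A on the spindle, was at 305 and 313 untreated, 229 and 235 with HDM, 229 and 221 with Grass, and 258 and 249 with Cat. Prc1, which bundles the central spindle, was at 128 and 125 untreated, 95.6 and 99.1 with HDM, 94.3 and 90.6 with Grass, and 104 and 97.4 with Cat. In these genes the extract libraries were all lower than both untreated ones, with the lowest values under Grass. Aspm, a spindle pole protein, was at 94.8 and 83.9 untreated, against 66 and 69.6 with HDM, 68.7 and 64.2 with Grass, and 68.6 and 63 with Cat, and it fell by 0.40, 0.43 and 0.44 on the log2 scale (SE 0.06). Nusap1, a microtubule bundler, changed by -0.34, -0.37 and -0.40.

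The 3 cytokinesis genes fell with every extract. Ect2, which activates the GTPase RhoA at the cleavage site, was at 59.3 and 60 untreated, 42.7 and 45.3 with HDM, 44.5 and 41.7 with Grass, and 47.3 and 47.9 with Cat. Anln (anillin), the scaffold of the contractile ring, was at 205 and 204 untreated, 167 and 170 with HDM, 164 and 158 with Grass, and 177 and 171 with Cat. Racgap1 was at 164 and 162 untreated, 137 and 146 with HDM, 139 and 138 with Grass, and 143 and 142 with Cat. All extract libraries were below untreated in the 3 genes.

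Top2a, the topoisomerase that untangles chromosomes, was at 558 and 549 untreated, 492 and 494 with HDM, 494 and 476 with Grass, and 502 and 485 with Cat. The proliferation marker Mki67, which coats mitotic chromosomes, was at 787 and 746 untreated, 702 and 702 with HDM, 677 and 643 with Grass, and 684 and 666 with Cat. Both fell with each extract, Top2a by 0.17, 0.19 and 0.17 and Mki67 by 0.13, 0.22 and 0.18 on the log2 scale, and the HDM call of Mki67 ended with upper-quartile scaling.

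Genes of the wider mitotic programme moved less uniformly. Of 106 other mitotic genes, all tested, 45 fell and 11 rose with HDM, 49 fell and 12 rose with Grass, and 37 fell and 8 rose with Cat, with medians of -0.09, -0.09 and -0.07. Over all rows tested, 21.9%, 25.4% and 13.6% fell and 9.22%, 10.4% and 4.34% rose, so the numbers that rose with HDM and Grass are near the background. Ckap5, a microtubule polymerase of the spindle, changed by -0.42, -0.46 and -0.37, and Kif14, a cytokinesis kinesin, by -0.43, -0.49 and -0.34. Ube2s, which elongates ubiquitin chains for the APC/C, changed by -0.29 with HDM and -0.31 with Grass. Among those that rose with all 3 were Mybl2, the B-Myb transcription factor (0.13, 0.16 and 0.18), Dsn1 of the Mis12 kinetochore complex (0.27, 0.23 and 0.18) and Pkmyt1, a kinase that inhibits Cdk1 (0.19, 0.20 and 0.19). The split between higher and lower depended on scaling, with 19 higher and 28 lower with HDM under upper-quartile factors. The list was written with results on some of its genes already known.

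G1/S and DNA replication genes went the other way. This list, too, was chosen with earlier results of these data known. Of 48, all tested, 26 rose and 1 fell with HDM, 35 rose and 2 fell with Grass, and 24 rose and 1 fell with Cat, where 9.22%, 10.4% and 4.34% of all rows rose. Their medians were 0.10, 0.14 and 0.09, against -0.27, -0.31 and -0.23 in the mitotic set. Ccne2, which encodes cyclin E2, rose by 0.34, 0.52 and 0.30, Ccne1 (cyclin E1) by 0.32, 0.42 and 0.31, and Clspn, the replication checkpoint protein claspin, by 0.34, 0.41 and 0.32. Dbf4, the activator of the replication kinase Cdc7, fell with each extract (-0.21, -0.31 and -0.19). The number that rose was 24 to 45 under the other scalings and count tests. It was 17 with HDM without HDM 1 and 15 with Cat without Cat 1.

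**Figure D4:**
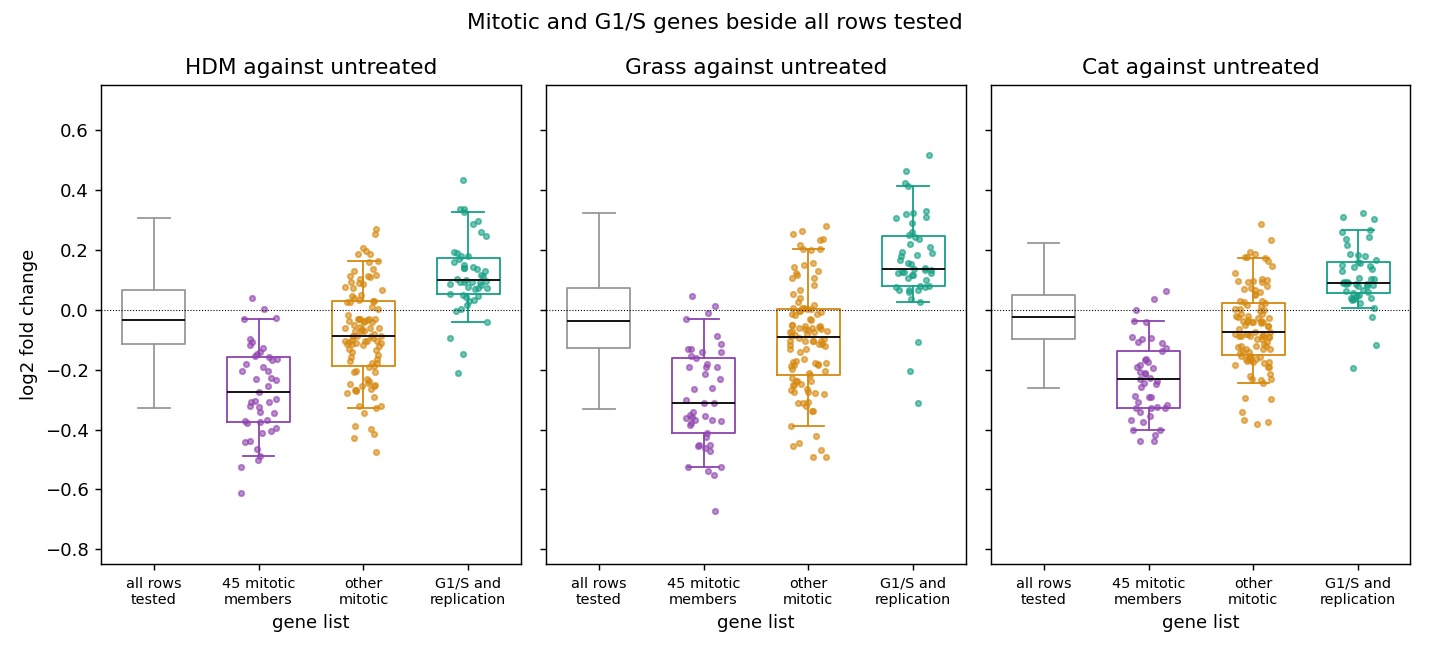
Log2 fold changes against untreated for all 11455 rows tested, the 45 mitotic genes, 106 other mitotic genes and 48 G1/S and replication genes, with boxes at the quartiles, whiskers at the 5th and 95th percentiles and points for listed genes. The 45 mitotic genes have medians of -0.27, -0.31 and -0.23, below all rows, and the G1/S genes have medians of 0.10, 0.14 and 0.09, above them.

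Direct comparisons between extracts asked whether the mitotic change differed in size. HDM and Grass differed in 1 member, Kif23, where 1.69% of all rows were higher and 0.62% lower with HDM. With Grass 15 members were lower than with Cat and 0 were higher, against 8.23% of all rows lower and 3.58% higher. They were Plk1, Ccnb1, Cdk1, Aurka, Cdc20, Ube2c, Incenp, Cenpe, Kif20a, Kif4, Tpx2, Prc1, Hmmr, Ect2 and Anln. Plk1 differed most (-0.24, limma adjusted p = 0.00014), followed by Ccnb1 (-0.20, limma adjusted p = 0.00016) and Tpx2 (-0.17, limma adjusted p = 0.00031). HDM was lower than Cat in 6 members, against 4.82% of all rows: Plk1 (-0.17), Ccnb1 (-0.17), Tpx2 (-0.13), Cdc20 (-0.12), Ube2c (-0.12) and Incenp (-0.12), and higher in Kif23 (2.94% of all rows were higher). The 15 genes were chosen for being lower with Grass than with Cat, so that order carries no further information. Their Cat means were also below the untreated means, although Incenp was not called lower with Cat.

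The differences between extracts rested on few libraries. All 7 calls between HDM and Cat ended without HDM 1 and, separately, without Cat 1, and 3 members were lower without Cat 2. The number lower with Grass than with Cat was 4 without Cat 1 and 5 without Grass 2, and 6 under upper-quartile scaling. Plk1, Ccnb1 and Tpx2 kept their Grass against Cat calls under all 18 alternatives.

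Some members share sequence with other genes. Against GENCODE M21 transcripts, 12 of 45 had a pseudogene copy at 90% identity or more over at least 300 bases (Bub3, Ccnb1, Cdc20, Cenpe, Kif11, Mad2l1, Ndc80, Plk1, Prc1, Racgap1, Sgol1 and Ube2c), so the size of their values is uncertain if reads were split. Another gene on the opposite strand overlapped exons of 11 members (Ccna2, Cdc20, Cdc25b, Cdc25c, Kif18a, Kif20a, Kif4, Nusap1, Plk1, Prc1 and Ube2c), and whether counting used strand is not stated. On the same strand, another gene overlapped exons of 2 members (Foxm1 and Top2a).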

How the data were processed

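Per the labels' protocols, mRNA-enriched, stranded libraries of 8 DC2.4 samples were sequenced. Bowtie2 2.1.0, RSEM 1.2.15 and edgeR, and mm9 as the build, are named in the submitters' processing notes without a role; annotation and strand setting are not given in the sources used here. The deposited table is named as raw counts, but it holds a depth-scaled signal: 100% of the values were whole reads times 1 step per library (largest distance 9.9e-10 of a read). The authors' 3 tables of changed genes add a deposited fold (a signed score), a deposited p-value and an FDR.

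Rows at 0.5 or more in at least 2 libraries (11455) were tested with limma 3.58.1 (R 4.3.3) on log2(value + 0.1), trend and robust, 8 libraries in 1 fit with 4 residual degrees of freedom, Benjamini-Hochberg adjusted over all rows. EdgeR 4.0.16 and DESeq2 1.42.0 on recovered reads, other scalings, a block and leaving out libraries were alternatives (edgeR at the deposited scaling called 3560, 4151 and 2015 rows with HDM, Grass and Cat, limma 3569, 4102 and 2060). The fit was also run on simulated data, with changes in both directions in HDM only and no shift in scaling. That run cannot show how far the calls depend on scaling. Members and lists were chosen with earlier results of these data known; alternatives for the lists were added after seeing the data. Values in every library are given for the members with the smallest and largest p of each role, those in a deposited table and those called between extracts (29 of 45); Pttg1 ranges were added. The replicate numbers of the labels name no shared batch.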

Additional observations from a re-analysis of the deposited data

How the results depend on the processing

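Each count was recomputed under 18 alternatives, 8 of which leave out 1 library. The number of members lower ranged from 30 to 39 with 1 library left out: 37 to 39 with HDM, 38 to 39 with Grass and 30 to 37 with Cat, the lowest without Cat 2. Of the calls, 33 of 39, 34 of 39 and 29 of 37 held under every alternative, and 28 genes in all 3 comparisons. Under upper-quartile factors 1, 2 and 1 members rose. Between extracts the count higher with HDM than with Grass was 3 with only the 2 groups in the fit and 1 to 3 with a library left out; HDM was lower than Cat in 3 members under upper-quartile factors and with DESeq2, in 0 to 8 with a library left out, and higher in 0 to 1; Grass was lower than Cat in 6 under upper-quartile factors and with DESeq2 and in 4 to 17 with a library left out.

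Leaving aside changes of 0.00, signs turned only in uncalled members. Aurkb with HDM was at 0.01 with TMM, DESeq2 factors, edgeR with TMM and DESeq2, and at 0.04 with upper-quartile factors. With Grass, Aurkb was at -0.02 without Grass 1. Mad2l1 with HDM was at 0.01 with TMM, DESeq2 factors and edgeR with TMM, and at 0.04 with upper-quartile factors. Sgol1 turned with Grass (0.01 and 0.05) and with Cat (0.01). Birc5 turned with Grass (0.03 and 0.07, and 0.01 without untreated 1 or Grass 2), and was down to -0.04 without untreated 2. Incenp with Cat was at 0.01 without untreated 1 and down to -0.09 without untreated 2. Mad2l1 with Cat, at 0.00 in the main fit, was at 0.04 with upper-quartile factors.

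Other mitotic genes lower with HDM, Grass and Cat were 28, 34 and 22 under upper-quartile factors and 29, 32 and 19 with DESeq2; those higher were 19, 22 and 14, and 6, 10 and 4, and 4 with Cat with only 2 groups in the fit. Leaving out 1 library gave 33 to 44, 40 to 49 and 17 to 34 lower (the fewest with Cat without Cat 2), and 4 to 9, 7 to 12 and 3 to 8 higher (4 without HDM 2 and 5 without untreated 2 with HDM, 7 without Grass 2 with Grass, and with Cat 5 without untreated 2, 4 without Cat 1 and 3 without Cat 2). For G1/S genes, 1 fell with Grass under each other scaling, edgeR with TMM and DESeq2, and leaving out 1 library gave 1 to 2 lower with HDM and Grass (with HDM 2 without untreated 2 or HDM 1, with Grass 1 without untreated 1 or Grass 1), and 17 to 28 higher with HDM, 26 to 37 with Grass and 15 to 27 with Cat. The causes were not tested.

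The replicate block, a term for the number in the labels, left 39, 39 and 37 members lower and 14 with Grass against Cat, where Hmmr lost its call. Same-numbered libraries deviated together by a correlation of only -0.0797 to 0.128. The member with the fewest reads in a library had 448, and the replicates differed by 2.2 to 4.36 times the counting variance (chi-square per degree of freedom).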
